A study of Mus musculus with 2 samples.

Results

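Adipocyte-rich spots are the 60 spots of each femoral section with the highest share of UMIs (counted molecules) in 4 adipocyte genes, Adipoq, Plin1, Plin4 and Cfd. They were ranked among the spots under tissue that lay outside the bone region and held at least 500 UMIs, which left 1767 spots in the Control section and 1285 in the Loaded section. The 120 members are 120 of 3398 spots under tissue. A Visium spot is 55 µm wide, and its neighbours lie 100 µm away from centre to centre, so that a spot can hold several cells of different types and a member is a small region containing adipocyte RNA, not an adipocyte. The members were thus selected on measured counts of these 4 genes, and the values of the 4 genes in them are given as a description.

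Both femurs came from female bone cell reporter mice, in which osteoblast and osteoclast targets (Ibsp and Acp5) carry fluorescent proteins, so that the controls hold the same reporter alleles. Each mouse had a mid-diaphyseal femoral osteotomy at 12 weeks of age, stabilised by an external fixator, and was euthanized 5 weeks later, at 17 weeks of age. The Loaded mouse received cyclic mechanical loading through the fixator 3 times per week once the defect had bridged, and the Control mouse received sham-loading. Each group is 1 section of 1 mouse, measured on formalin-fixed, decalcified tissue with a probe-based assay, so that a difference between Loaded and Control members cannot be told apart from a difference between mice or between the tissue that each section happened to contain, and no test between the groups was possible.

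White adipocytes store triglyceride in a single large droplet coated by perilipins and CIDE proteins, make fatty acids from glucose, and release them again by hormone-driven lipolysis. They also secrete hormones and plasma proteins, among them adiponectin (Adipoq), resistin (Retn), leptin (Lep) and the complement protease adipsin (Cfd). Around a long bone they are found in the marrow cavity, between and around muscles, and under the skin. In these counts, fewer adipocytes in a spot and less RNA per adipocyte cannot be told apart.

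The Control members held 236680 UMIs, with a median of 3729 per spot, and the Loaded members held 163912, with a median of 2286. The other 1707 Control spots had a median of 2080 UMIs and the other 1225 Loaded spots a median of 2654. By the median, the members were thus deeper than the other spots in Control and shallower in Loaded, while the upper quartile was lower than that of the other spots in both, at 4959 against 6404 UMIs and at 3171 against 4208. Of the spot barcodes, 557 occurred in both sections, as the arrays share one grid, and 0 of them were members in both.

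The same rank marked much richer spots in Control than in Loaded. The 4 genes made up 2.24% of the UMIs of the Control members (95% binomial interval 2.18 to 2.3) and 0.575% of those of the Loaded members (0.539 to 0.612). In the other spots the share was 0.0283% (0.0271 to 0.0294) and 0.0243% (0.0228 to 0.0258), a smaller difference than that between the members. A single Control member held between 0.583% and 4.68% (median 1.37%), and a single Loaded member between 0.235% and 2.96% (median 0.325%). At the limit, the last Control member had 0.583% (8 of 1373 UMIs) and the first spot left out 0.58% (3 of 517), while the corresponding Loaded spots had 0.235% (3 of 1278) and 0.234% (9 of 3842). Only 14 Loaded spots reached the lowest share of a Control member. Intervals here and below cover counting error only.

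Cfd supplied most of the counts behind the rank. In the Control members Cfd (chr10:79890853-79892655) had 4309 UMIs, Adipoq (chr16:23146536-23158028) 608, Plin1 (chr7:79720218-79732903) 331 and Plin4 (chr17:56100591-56109803) 49. In the Loaded members they had 787, 77, 71 and 7 UMIs in the same order. Cfd thus gave 81.3% of the rule's UMIs in Control and 83.5% in Loaded. All 60 members of each section held a Cfd UMI, whereas Adipoq was found in 59 Control and 33 Loaded members and Plin1, which coats the droplet, in 49 and 32. Plin4 behaved differently from the other markers. It is a perilipin of small droplets that is also known from muscle, and only 13% of its UMIs in the Control section and 6.42% in the Loaded section lay in members, against 70.4% and 39.5% for Adipoq.

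The members were also described by single markers. Adipoq and Plin1 belong to the rule, so that their presence describes the selection and does not check it. Each Control member had a UMI of Adipoq or Plin1, and 48 had both. In Loaded, 22 members had both and 17 had neither, the 17 being spots with Cfd alone. The 12 adipocyte genes listed outside the rule (Cidec, Lipe, Retn, Lep, Aqp7, Adrb3, Pck1, Acvr1c, Gpd1, Slc36a2, Trarg1 and Pparg) gave at least 1 UMI in all 60 Control members, with a median of 14.5, and in 41 Loaded members, with a median of 2. For background, muscle spots are those with at least 10% of UMIs in fast muscle genes. Of these, 71.6% in Control and 60.4% in Loaded also had such a UMI at full depth, beside 100% and 68.3% of the members. A total of 9 Loaded members had no UMI of Adipoq or Plin1 and none of the 12 genes. The Loaded set is therefore best read as a mixture of adipocyte-rich spots and spots that passed on a few Cfd counts.

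**Figure D1:**
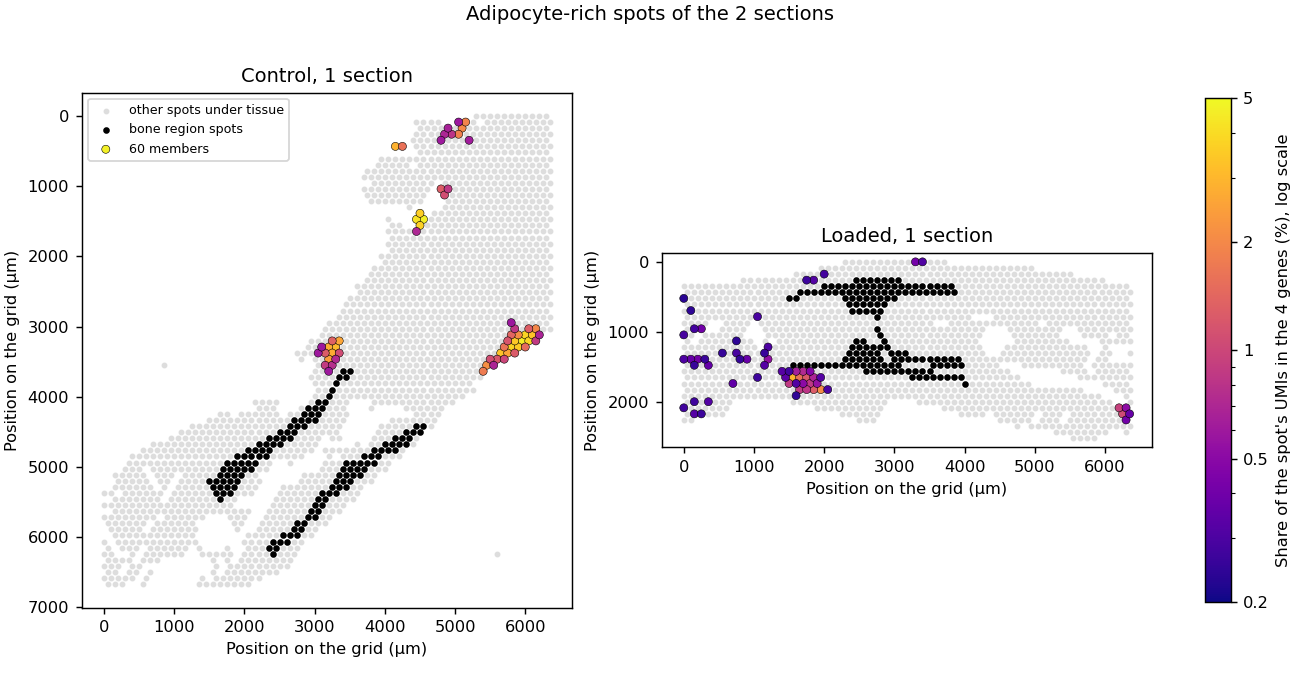
Spots under tissue of the Control and Loaded sections at their grid positions in µm, with bone region spots in black and the 60 members of each section coloured by their share of UMIs in the 4 genes (log scale, %). The Control members form a few dense patches at 0.583% to 4.68%, while most Loaded members are below 0.541%, with 33 of the 60 in 3 patches of at least 5 spots and 12 single spots.

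No member lay in the mapped part of the marrow cavity. The bone region spots run along both sides of the shaft, and none of the 60 members of either section lay in the cavity between them. The cavity held 11% of the ranked spots in Control and 17.7% in Loaded. With 100 members per section, 0% of the members in Control and 2% in Loaded lay there. Most members touch another member and are not independent draws, so no interval is given. In Control, 14 members (23.3%) lay beside the shaft on its outer faces and 46 (76.7%) past the ends of the bone region along the shaft, where no cavity was mapped and members in marrow cannot be told apart from others. In Loaded, the figures were 25 (41.7%) and 35 (58.3%). Members were further from bone in Control, with a median distance of 1844 µm (range 173 to 3915), than in Loaded, with a median of 436 µm (range 100 to 2390). The other spots had medians of 1153 µm and 608 µm, and the sections do not cover the same stretch of tissue. A spot missing 1 or more of its 6 grid neighbours lay at an edge of the tissue or of the grid, which were not separated. This held for 40% of the Control members against 25.3% of the other spots, and for 28.3% against 27.1% in Loaded. Some Loaded members lay at the border of the grid, so the figures do not compare tissue edges between the sections.

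In Control the members clustered. Of the 60, 59 touched another member, and they formed 7 patches, of which 4 had at least 5 spots and together held 54 members. In Loaded, 48 members touched another and there were 21 patches, of which 12 were single spots and 3 of at least 5 spots held 33 members. The largest patch had 27 spots in Control, 1153 to 2117 µm from bone, and 22 in Loaded, 100 to 436 µm from bone on the outer face of one side of the shaft and around its end. The second Control patch, of 14 spots, also lay beside the shaft at 173 to 458 µm.

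The adipocyte signal was lower with each step away from the members. In Control, the 4 genes made up 2.24% of UMIs in the members, 0.221% in the spots 100 µm away, 0.11% at over 100 to 200 µm, 0.0364% at over 400 to 1000 µm and 0.00755% beyond 1000 µm. In Loaded, the steps were 0.575%, 0.0718%, 0.0423%, 0.018% and 0.0094%. The 12 genes outside the rule followed, with 0.59% in the members and 0.0916% at 100 µm in Control, and 0.115% and 0.0371% in Loaded. Over the later steps they fell less than the 4 genes, with 0.0554%, 0.0451% and 0.0316% in Control. In Loaded these were 0.0312%, 0.0201% (0.0177 to 0.0227) and 0.019% (0.0169 to 0.0212), so that the intervals of the last steps overlapped. The first drop is fixed in part by the rule, which puts the highest spots among the members, but the 12 genes did not enter the rank.

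**Figure D2:**
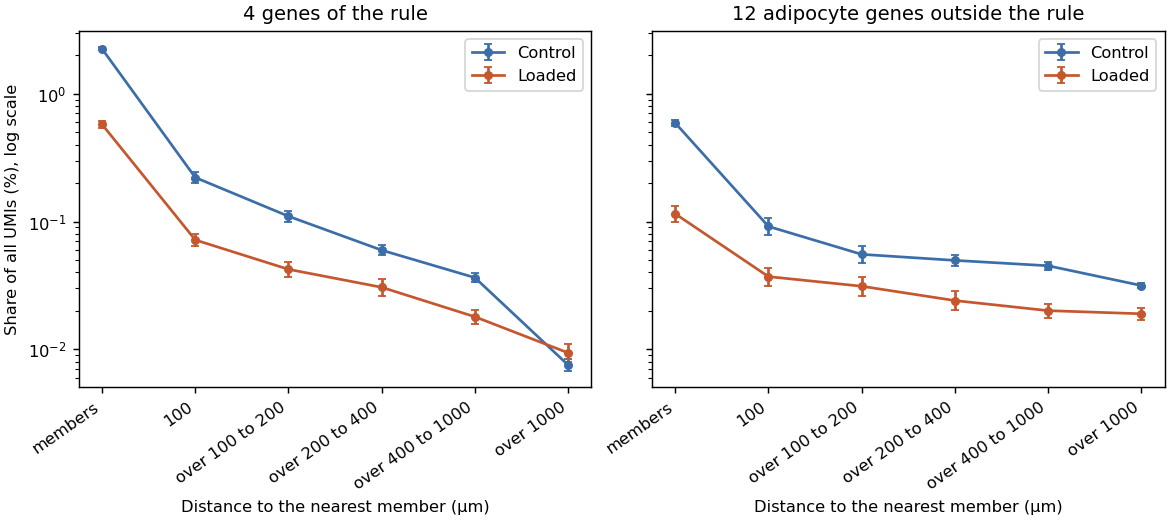
Share of all UMIs (%, log scale) in the 4 genes of the rule and in the 12 adipocyte genes outside it, by distance to the nearest member in µm, with exact binomial 95% intervals, for Control and Loaded. The 4 genes drop from 2.24% to 0.221% within 100 µm in Control and from 0.575% to 0.0718% in Loaded, and the other 12 genes drop with them.

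Against the other spots of the same section, 749 of 10004 genes with at least 50 UMIs were at least 2-fold higher in the Control members (7.49%) and 2394 at least 2-fold lower (23.9%). In Loaded, 393 of 9274 genes were higher (4.24%) and 1217 lower (13.1%). The balance depended on the settings. With at least 10 UMIs per gene, 3352 genes were higher and 2485 lower in Control, and 2901 and 1231 in Loaded. With 30 members per section, the Loaded counts were 1251 and 1032. It also depended on the scaling. With scran size factors the median gene stood at -0.28 (log2) in Control and -0.11 in Loaded, whereas with library totals the medians were 0.45 and 0.04 and the Control counts turned to 2648 higher and 925 lower. The genes described next stood far from either median. Of the 9141 genes with enough UMIs in both sections, 147 were higher in both and 412 lower in both, and for 111 and 124 of these the counting interval left out 0 in both sections.

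Many of the 12 highest genes outside the rule are known from adipocytes or from fat synthesis. Of the 111 genes higher in both sections with intervals above 0, 23 are on an adipocyte or lipid list or in the rule. This count includes genes of the rule, whose ratios follow from the selection. The share of listed genes among all 9141 was not computed, so the count is a description and is not read as an excess. Ranked by the lower of the ratios in the 2 sections, the 12 were Hp, Cyp2e1, Cidec, Scd1, Thrsp, Cyp2f2, Fasn, Cdo1, Ifi27l2a, Fabp4, Trarg1 and Adig. Hp, which encodes haptoglobin, a plasma protein made by liver and fat, had 173 UMIs in the Control members and 42 in the Loaded members, log2 ratios over the other spots of 5.39 (5.01 to 5.78) and 4.24 (3.62 to 4.85). Cyp2e1, a cytochrome P450, had 321 and 41 UMIs, at 5.54 and 4.07. Cidec, which fuses lipid droplets into one, had 164 and 32 UMIs, at 5.84 (5.40 to 6.29) and 3.99 (3.29 to 4.66). Adig, an adipocyte droplet gene, had 228 and 21 UMIs, at 5.56 and 2.88. All 12 had a higher ratio in the Control members, as did the 4 genes that chose them.

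**Figure D3:**
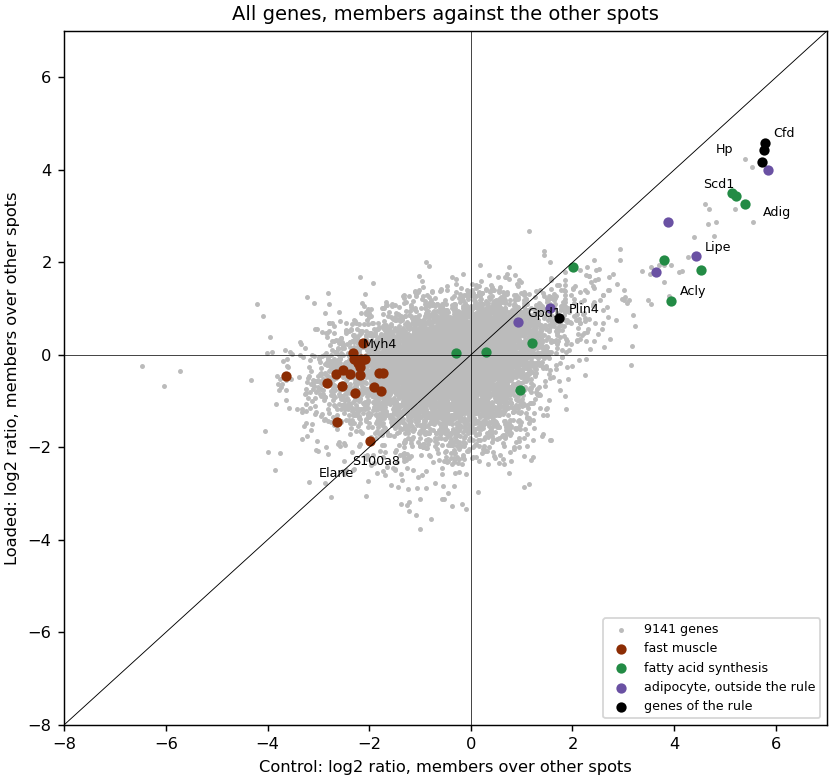
Each point is 1 of 9141 genes, placed by its log2 ratio of members over other spots in Control (horizontal) and in Loaded (vertical), with the diagonal of equal ratios. Genes of the rule, adipocyte genes outside it and genes of fatty acid synthesis lie at the upper right, most below the diagonal, and the fast muscle genes have medians of -2.21 in Control and -0.40 in Loaded.

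Among secreted proteins, resistin stood as high as the markers themselves. Retn had 279 UMIs in the Control members and 94 in all other Control spots, a log2 ratio of 5.95 (5.61 to 6.31), and 23 against 23 in Loaded, a ratio of 4.57 (3.67 to 5.47). Rbp4, the retinol carrier, had 142 and 13 member UMIs, at 4.27 and 2.12. Nrg4, a growth factor secreted by adipocytes, had 52 and 9, at 5.04 and 3.28. Leptin was scarce, with 11 UMIs in the Control members and 2 in the Loaded members. Of the adipokine list without Cfd and Adipoq, which chose the spots, 3 of 4 measured genes were at least 2-fold higher in the Control members and 1 of 2 in the Loaded members, beside 7.49% and 4.24% of all genes. The Loaded values of Retn and Nrg4, and those of Lep in both sections, rest on fewer than 50 UMIs in all, as do the Loaded values of Adrb3 and Pck1 and both of Pparg below. A gene that is scarce elsewhere can pass the 50-UMI minimum through the members, so such counts are descriptions.

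Several droplet and lipolysis genes were also at least 2-fold higher in the members, more of them in Control than in Loaded. Of the droplet list without Plin1 and Plin4, which chose the spots, Cidec, Plin2 and Bscl2 were at least 2-fold higher in both sections, and Plin3, Plin5 and Fitm2 were not in either. Plin2, the perilipin found in most cell types, was much less specific than Plin1, with 45 and 20 member UMIs and log2 ratios of 1.86 (1.37 to 2.32) and 1.21 (0.47 to 1.88). Lipe, hormone-sensitive lipase, had 324 and 44 UMIs, at 4.43 (4.20 to 4.66) and 2.13 (1.63 to 2.60). Pnpla2, the lipase of the first step of triglyceride breakdown, is used in muscle as well and stood at 2.31 in Control and 0.56 in Loaded, with 489 and 102 UMIs. Adrb3, the adrenergic receptor of adipocytes, had 52 and 14 UMIs, at 5.39 and 3.33. Of the lipolysis list, 6 of 8 measured genes were at least 2-fold higher in the Control members and 2 of 7 in the Loaded members, beside the 7.49% and 4.24% of all genes. At least 2-fold lower were 1 in Control and 0 in Loaded.

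Genes for making fat were higher in the members of both sections. The fatty acid synthesis list made up 1.46% of UMIs in the Control members against 0.0614% in the other spots, and 0.273% against 0.055% in Loaded. Of its 11 genes, 8 were at least 2-fold higher in Control and 7 in Loaded, beside 7.49% and 4.24% of all genes, and its median ratio was 3.81 and 1.84 (log2), where that of all genes was -0.28 and -0.11. Scd1, the stearoyl-CoA desaturase, had 1242 and 148 UMIs, at 5.13 (4.99 to 5.26) and 3.50 (3.21 to 3.79). Fasn, fatty acid synthase, had 882 and 91, at 5.40 and 3.26, and Thrsp, a lipogenic regulator, 452 and 54, at 5.22 and 3.43. Counts of different genes are not compared as levels, since each gene has its own probes. For esterification, 4 of 7 measured genes were at least 2-fold higher in Control and 2 of 6 in Loaded, beside the same shares of all genes. Agpat2, an acyltransferase, had 184 and 12 UMIs, at 4.79 and 2.57, and Pck1, which supplies glycerol phosphate in fat, had 210 and 11, at 6.10 (5.69 to 6.53) and 3.86 (2.63 to 5.02).

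Of 11 uptake genes, 8 were at least 2-fold higher in Control and 3 in Loaded, beside 7.49% and 4.24% of all genes. At least 2-fold lower were Vldlr, a lipoprotein receptor, in Control (-1.51) and Gpihbp1, the capillary anchor of lipoprotein lipase, in Loaded (-1.12), and the list's median in Loaded was 0.02. Fabp4, the fatty acid binding protein of adipocytes and capillary endothelium, gave most of the list's UMIs, with 3007 UMIs in the Control members and 407 in the Loaded members, at 4.82 (4.74 to 4.90) and 2.88 (2.72 to 3.05). Slc27a1, a fatty acid transporter, had 466 and 58, at 3.48 and 1.18. Lpl and Cd36, which muscle and vessels also express, stood at 1.79 and 1.27 in Control, and at 0.10 (-0.23 to 0.40) and 0.02 (-0.37 to 0.39) in Loaded, where no difference from the other spots was detectable at this depth. Among transcription factors, Cebpa had 173 and 24 member UMIs, at 4.09 and 1.79. Pparg, the main regulator of adipocyte identity, was caught too rarely to rank, with 12 and 4 UMIs. Of the transcription factor list, 2 of 9 genes were at least 2-fold higher in each section, beside the same shares of all genes. Cebpb, an early factor of the same family as Cebpa, stood at -0.79 (-1.06 to -0.53) in Control and -0.19 (-0.51 to 0.11) in Loaded.

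Of the 10 genes of the thermogenic list, which holds brown and beige fat markers, the 4 without a UMI in the Loaded members were also scarce in the Control members. Ucp1 had 1 UMI in the Control members and 0 in the Loaded members, Cidea 12 and 0, Otop1 8 and 0, and Elovl3 0 in both. The 12 Cidea UMIs and the 8 Otop1 UMIs lay mostly in the largest Control patch, with 8 and 6. The summed thermogenic list stood at 0.093% of UMIs in the Control members against 0.192% in the other spots. In Loaded it stood at 0.186% against 0.233%. Its most abundant gene, Cox8b, is also a muscle gene and supplied 151 of its 220 UMIs in Control and 176 of 305 in Loaded.

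Single spots were also compared at equal depth. After random thinning of every spot to 1000 UMIs (1 Control and 9 Loaded members were too shallow and dropped), Adipoq was seen in 88.1% of the Control members (77.1 to 95.1), 4.96% of the other Control spots and 3.05% of the muscle spots, which are spots with at least 10% of UMIs in fast muscle genes. In Loaded, the shares were 29.4% (17.5 to 43.8), 2.56% and 2.29%. Adipoq is a gene of the rule, so that these shares are a description. For the 12 genes outside the rule together, they were 96.6%, 33.2% and 34.5% in Control, and 47.1%, 22.3% and 22.2% in Loaded. Without thinning, the median UMI counts differ (3729 for the Control members, 4626 for the muscle spots) and the shares for these 12 genes were 100% against 71.6% in Control and 68.3% against 60.4% in Loaded. For the 12 genes, the members stood above the muscle spots, the reference for background, in both sections. Across the 60 members, the share of the 4 genes went with that of the 12 other genes, with a Spearman coefficient of 0.896 in Control and 0.504 in Loaded, given as a description of spots of 1 library that differ in depth.

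The letters before the starts of the 4 genes of the rule and the 12 outside it were read. Not all of them were measured as high in the members. Lep, Acvr1c and Pparg had 11, 7 and 12 UMIs in the Control members and 2, 1 and 4 in the Loaded members. Aqp7, thinned to 1000 UMIs, was seen in 1.96% of the Loaded members and 1.71% of the other Loaded spots. RefSeq promoter windows (GRCm38.p6, 250 bases before to 50 after a start) were matched for 12 of 16 adipocyte genes, with 18 starts in all, and searched on both strands for AGGTCA (the nuclear receptor half-site), TTGCGCAA and TTGCNNAA (C/EBP-type letters, the latter including the former) and TATAAA. TTGCNNAA was found in 4 of the 18 windows, where 10.8% of all 32851 windows hold it, AGGTCA in 4 (16.3% of all), TTGCGCAA in 1 (0.183%, the Lep window) and TATAAA in 1 (13.6%, a Pparg window). The AGGTCA windows belong to Aqp7 and Pparg only, and those of Aqp7 overlap and share a site. The genes Adrb3, Gpd1, Slc36a2 and Trarg1 had no match. The 250 bases before a start are shown 5′ to 3′ for Adipoq (chr16:23146286-23146535, plus strand), Plin1 (chr7:79732777-79733026, minus strand) and the inner of 2 Cidec starts (chr6:113434765-113435014, minus strand), chosen as genes with high ratios in both sections, with TTGCNNAA in capitals. Plin1 holds it at -187 and -58 from the start and this Cidec start at -198. Adipoq and the outer Cidec start, which is not shown, hold none of the 4 motifs. A match describes letters and not a binding site.
Adipoq: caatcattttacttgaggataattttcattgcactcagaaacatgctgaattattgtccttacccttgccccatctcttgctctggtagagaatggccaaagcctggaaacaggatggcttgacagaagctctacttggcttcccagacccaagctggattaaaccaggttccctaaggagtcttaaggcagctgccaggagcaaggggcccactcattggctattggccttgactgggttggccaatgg
Plin1: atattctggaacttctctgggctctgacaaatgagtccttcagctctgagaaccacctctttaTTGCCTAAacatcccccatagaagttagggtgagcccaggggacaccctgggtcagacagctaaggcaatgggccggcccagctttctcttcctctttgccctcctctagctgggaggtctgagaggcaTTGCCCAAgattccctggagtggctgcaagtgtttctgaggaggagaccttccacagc
Cidec: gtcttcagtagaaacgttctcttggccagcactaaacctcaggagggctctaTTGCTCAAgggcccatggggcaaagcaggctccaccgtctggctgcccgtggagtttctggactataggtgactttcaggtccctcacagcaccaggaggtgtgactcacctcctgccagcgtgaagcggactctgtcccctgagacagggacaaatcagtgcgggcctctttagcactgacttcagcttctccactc

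What else the members contained differed between the sections. The 22 fast muscle genes made up 11% of UMIs in the Control members against 31.9% in the other Control spots, and all 22 were at least 2-fold lower, where 23.9% of all genes were. In Loaded they made up 17.5% against 19.2%, and 2 of 22 were at least 2-fold lower, where 13.1% of all genes were. By spot, 28 Control and 47 Loaded members reached 10% fast muscle UMIs, and 59.8% and 52.3% of the other spots did. The median member had 7.85% in Control and 16.7% in Loaded, where the other spots had medians of 14.1% and 10.7%, so that in Loaded the median and the summed share stood in opposite order to the other spots. Slow muscle genes were at 0.038% in the Control members and 0.874% in the Loaded members, with 0.233% and 1.02% in the other spots. The erythroid and granulocyte lists were lower in both member sets than in the other spots. At least 2-fold lower were 5 of 6 measured erythroid genes in each section. Of the granulocyte genes, 7 of 11 were in Control and 10 of 12 in Loaded, beside 23.9% and 13.1% of all genes. The erythroid list made up 0.578% of UMIs in the Control members and 1.7% in the Loaded members. The erythroid list stood at log2 ratios of -2.31 and -1.10 over the other spots and the granulocyte list at -2.01 and -2.12.

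Among the lowest genes by the rule for naming, Elane and S100a8, neutrophil granule genes, had ratios of -3.18 and -2.52 in Control and -2.75 and -2.51 in Loaded, from 2 and 5 member UMIs in Control and 3 and 14 in Loaded. Against neighbouring spots only, Elane and Ibtk in Control turned to 0.37 each, and with 30 members Samd8 in Loaded turned to 0.16. Pklr, the pyruvate kinase of red cells and liver, stood at -2.75 and -3.07 on 2 and 1 UMIs. The other 5, Hist1h2bj, Amot, Samd8, Ibtk and Plaur, rested on 1 to 4 member UMIs in each section, and the interval of Amot in Loaded reached 0.01. The low end of the ranking was thus much less well measured than the high end.

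Several stromal and vascular lists were higher in the members than in the other spots, and some were as high in the spots that touched a member. Mural genes made up 0.151% of UMIs in the Control members and 0.146% in their neighbours, and 0.131% and 0.183% in Loaded. Fibroblast genes made up 0.981% and 0.936% in Control, and 1.12% and 1.05% in Loaded. Endothelial genes made up 0.115% in the Control members and 0.072% in their neighbours, and 0.0757% and 0.0668% in Loaded. Macrophage genes made up 0.0756% and 0.0693% in Control, and 0.149% and 0.0839% in Loaded. Among the 60 members the stromal lists did not follow the share of the 4 genes closely, with Spearman coefficients of 0.148 and 0.132 for endothelium, -0.229 and 0.0936 for fibroblast and -0.14 and 0.063 for macrophage genes in Control and Loaded. The mural cell list (smooth muscle and pericytes) stood at 1.30 (1.14 to 1.46) in Control and 0.51 (0.30 to 0.71) in Loaded, and the marrow stroma list at 1.36 and 0.71, led by Cxcl12 with 93 and 50 UMIs. The endothelial list stood at 0.82 (0.64 to 1.00) in Control and 0.24 (-0.04 to 0.50) in Loaded, or at 1.55 and 0.39 (0.12 to 0.65) with library totals. Macrophage genes were at 0.31 (0.09 to 0.53) and 0.87 (0.68 to 1.06), led by C1qa with 69 and 83 UMIs, with Adgre1 and Lyz2 at 0 in the Control members, and at 1.04 and 1.03 with library totals. The fibroblast list was at 0.42 and 0.38, or at 1.15 and 0.54 with library totals. Progenitor markers of fat were sparse, and their list stood at 0.18 (-0.08 to 0.43) and 0.48 (0.20 to 0.75), or at 0.91 (0.65 to 1.16) and 0.64 (0.35 to 0.91) with library totals, with Pi16 giving 52 and 44 of its UMIs. The B and plasma cell list stood at -2.05 in Control and -0.24 (-0.55 to 0.05) in Loaded. The Schwann cell list, with 42 and 21 UMIs, stood at -0.47 and -0.58, the former turning to 0.25 with library totals.

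Skeletal lists differed in sign and size. Osteoblast genes stood at -0.14 (-0.32 to 0.03) in the Control members, or 0.58 with library totals, and at -0.97 (-1.24 to -0.71) in the Loaded members, and chondrocyte genes, with 60 and 10 UMIs, at -1.51 and 0.53 (-0.56 to 1.44). The insulin response list was at -0.12 and -0.05, or at 0.61 and 0.10 with library totals. The summed tendon and osteoclast lists stood at 0.27 and 0.35 in Control and at -0.74 and -0.48 in Loaded. Their median genes stood at -0.29 and -0.22 in Control, near the median of all genes, and turned to 0.44 and 0.51 with library totals. In Loaded they stood at -0.95 and -0.81, or -0.80 and -0.65 with totals, and the Control sums were led by Comp (385 of 662 UMIs) and Ctsk (260 of 620). The osteoclast list was uneven in Control, at 0.442% of UMIs in the largest patch and 0.0975% to 0.152% in the other patches of at least 5 spots. How far neighbouring tissue within the spots set any of these values was not tested.

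**Figure D4:**
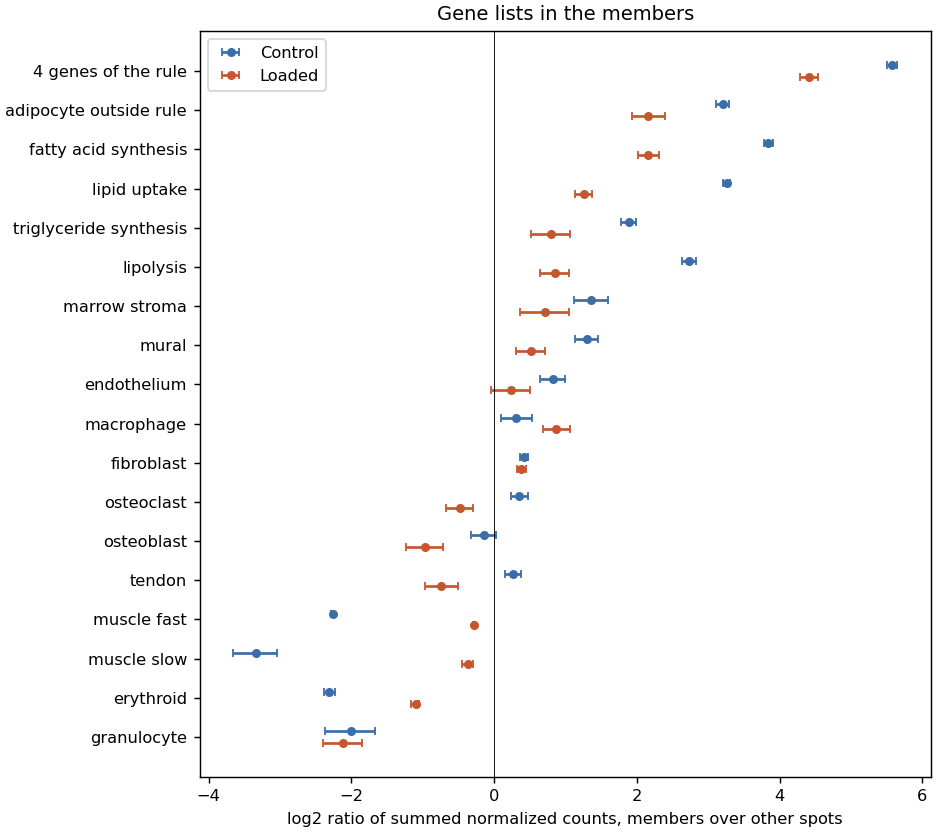
log2 ratio of summed normalized counts, members over other spots, for 18 gene lists in Control and Loaded, with 95% counting intervals. Most adipocyte and lipid lists stand above 0 in both sections and further from it in Control. The fast muscle list is at -2.26 in Control and -0.28 in Loaded.

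The neighbouring spots are a closer reference than the whole section. Against the 65 Control and 128 Loaded spots that touched a member, 126 and 127 genes were at least 2-fold higher and lower in Control, and 32 and 48 in Loaded, with fewer UMIs in the reference and so fewer genes past the minimum. Muscle made up 23.6% of UMIs in these neighbours in Control and 22.5% in Loaded.

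Patches differed in what surrounded the fat. The largest Control patch, of 27 spots past the end of the bone region, had 2.25% of UMIs in the 4 genes and only 3.58% in fast muscle genes. It also had 0.442% in osteoclast genes, against 0.0975% to 0.152% in the other larger Control patches. A patch of 5 spots at 2207 to 2464 µm from bone was the richest, at 3.58% for the 4 genes with 15.8% muscle, and also the deepest, with a median of 9227 UMIs. The patch of 14 spots beside the shaft had 1.72% with 24.7% muscle, and that of 8 spots had 1.36% with 9.62% muscle. In Loaded, the patch of 22 spots beside the shaft had 0.932% with 17.8% muscle, and the patches of 6 and 5 spots 0.326% and 0.667%. The lowest share among the larger Control patches exceeded the highest in Loaded. These are shares of the genes that chose the spots, cut at 0.583% in Control and 0.235% in Loaded, so that this order is a description. With 0.583% as the limit in both sections, the 14 Loaded spots that remained stood at 1.26%.

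Each section had a larger patch beside the shaft. They differed in surroundings, with fast muscle at 24.7% of UMIs in Control and 17.8% in Loaded, fibroblast genes at 0.506% and 1.4%, and macrophage genes at 0.0395% and 0.203%. The Control patch of 14 spots held 67 UMIs of Adipoq, 33 of Plin1, 31 of Cidec, 44 of Retn, 22 of Pck1 and 139 of Scd1 in 43092 UMIs. The Loaded patch of 22 spots held 47, 46, 20, 12, 8 and 78 in 63394 UMIs. The 12 genes outside the rule made up 0.434% in the Control patch and 0.185% in the Loaded patch, and fatty acid synthesis 0.893% and 0.377%. The shares of both lists were thus higher in the Control patch. Past the ends of the bone region, the Control patch of 5 spots and the Loaded patch of 5 spots lay at like distances from bone, 2207 to 2464 µm and 2227 to 2390 µm, with 15.8% and 17.1% fast muscle. They differed in slow muscle, at 0.00481% and 4.56%, and in depth, with medians of 9227 and 2951 UMIs. There the 12 genes made up 0.782% and 0.1%, and fatty acid synthesis 2.22% and 0.4%, with the same difference in limits.

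Comparing the members of the 2 sections directly, of 1418 genes with at least 50 UMIs over both sets, 75 were at least 2-fold higher in Loaded with no overlap between the 4 blocks of 15 members of each section (5.29%), and 97 at least 2-fold lower (6.84%). The blocks split the members in order along the shaft and are not replicates. With library totals the counts were 44 and 125. The median gene stood at 0.10 (log2) in the members and at -0.10 in the other spots. Of the 97 lower genes, 77 were at least 2-fold higher in the Control members than in the other Control spots, and of the 75 higher genes, 60 were at least 2-fold lower there, where 14.3% and 22% of the 1418 genes were. Both ratios use the Control members, so these counts are a description. The rule took 60 spots in each section whatever they held.

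Most adipocyte and lipid lists took a smaller share of UMIs in the Loaded members. The 4 genes that chose the spots stood at -1.74 (-1.86 to -1.63) for Cfd, -2.27 (-2.63 to -1.93) for Adipoq, -1.51 for Plin1 and -2.10 for Plin4, which describes the rule's own values, and the other spots stood at -0.56, -0.73, -0.19 and -1.15. Summed over all listed genes, with no minimum, the 12 genes outside the rule made up 0.59% in Control and 0.115% in Loaded, fatty acid synthesis 1.46% and 0.273%, lipid uptake 1.78% and 0.406%, lipolysis 0.491% and 0.131%, and triglyceride synthesis 0.374% and 0.0726%. In the other spots these shares were 0.0387% and 0.023%, 0.0614% and 0.055%, 0.112% and 0.152%, 0.0446% and 0.0654%, and 0.0612% and 0.0376%. Adipocyte transcription factors were closer, at 0.217% and 0.126%, progenitor genes stood at 0.0562% and 0.0708%, and the thermogenic list, led by Cox8b, at 0.093% and 0.186%.

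By gene, the calls depended on which genes reached the minimum of 50 UMIs over both member sets. Of the 97 lower genes, 66 met it in the Control members and not in the Loaded members, and of the 75 higher genes, 26 met it in the Loaded members and not in the Control members, so that these entered through the group where they were high. The counts for lists are therefore descriptions. All 7 measured genes of fatty acid synthesis were called lower, 7 of 8 adipocyte genes outside the rule, 5 of 5 of lipid uptake and 5 of 6 of lipolysis, beside 6.84% of all genes. Of the transcription factors 2 of 4 were called lower, of insulin response genes 1 of 5, of progenitor genes 0 of 2 and of thermogenic genes 0 of 2, with 1 called higher. Muscle, at 11% of UMIs in the Control members and 17.5% in the Loaded members, moved with these values, and its part in them was not tested.

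By the rule for naming, the lowest genes were Chad, Pck1, Agpat2, Lgals12, Pde3b, Retn, Apoc1 and Rbp4, each of which met the minimum through the Control members. Pck1 had 210 UMIs in Control and 11 in Loaded, a log2 ratio of -3.55 (-4.57 to -2.68) where the other spots stood at -1.31. Retn had 279 and 23, at -2.89 (-3.57 to -2.28) against -1.51. Lgals12, a galectin of lipid droplets, had 81 and 6, at -3.05, Pde3b, the phosphodiesterase through which insulin restrains lipolysis, 90 and 7, at -2.98, and Apoc1, an apolipoprotein, 59 and 5, at -2.85. Chad, a cartilage and tendon matrix protein, had 50 UMIs and 1 UMI, and 18 of the 50 lay in the smaller Control patches and 16 in the patch of 8 spots.

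The higher genes that the rule named are known from muscle and plasma cells. Of the 75, 14 were also at least 2-fold higher in the other Loaded spots. Tnnc1, Myh7 and Myl2, slow fibre genes, had 1, 7 and 1 UMIs in the Control members and 138, 606 and 82 in the Loaded members, log2 ratios of 7.82 (5.31 to 13.13), 7.14 (6.09 to 8.46) and 7.07 (4.55 to 12.39), where the other spots stood at 1.58, 1.78 and 1.69. Myh7 was uneven among the Loaded members, with blocks from 1.27 to 24.2 normalized counts per spot, and 231 of its UMIs lay in the patch of 5 spots and 352 in the smaller patches. Igkc and Igha, immunoglobulin chains, had 5 and 5 UMIs in Control and 58 and 47 in Loaded, at 4.24 and 3.94 where the other spots stood at 2.19 and 0.45, and 49 and 42 of these lay in the patch of 22 spots beside the shaft. Idh2, Hspb7 and Hspb6, a mitochondrial dehydrogenase and small heat shock proteins of muscle, stood at 2.95, 2.66 and 2.61, and the other spots at 1.04, 1.04 and 0.38. All 4 measured erythroid genes were at least 2-fold higher, 2 of them called, with a median of 1.98 against 0.53 in the other spots, beside 11.6% of all genes at that ratio and 5.29% called. Of 3 measured macrophage genes, 2 were at least 2-fold higher, C1qb at 1.96 and C1qc at 1.49, neither without overlap of the blocks.

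Counts were also set against those of the 4 genes. These genes chose the spots, some of the Loaded members on a few Cfd counts, which raises the divisor there, and tissue other than fat adds to any gene it expresses, so that the ratios are a description and not a profile of the fat. The members held 5297 UMIs of the 4 genes in Control and 942 in Loaded. Per 1000 of these, Cidec had 31 UMIs in Control and 34 in Loaded, Pnpla2 92.3 and 108, Acaca 26.8 and 26.5 and Dgat2 31.7 and 27.6, with intervals of the ratio that held 0 (log2) in each case. Within the divisor itself, Plin1 had 62.5 and 75.4 per 1000, at 0.27 (-0.12 to 0.64), and Adipoq 115 and 81.7, at -0.49 (-0.85 to -0.15). Of 69 genes of the adipocyte and lipid lists outside the rule, the interval lay below 0 for 10, above 0 for 19 and held 0 for 40. Among the 10, Pck1 had 39.6 and 11.7, a log2 ratio of -1.76 (-2.79 to -0.89), Agpat2 34.7 and 12.7, at -1.45 (-2.43 to -0.61), and Retn 52.7 and 24.4, at -1.11 (-1.79 to -0.49). Fasn stood at -0.79 (-1.11 to -0.47), Scd1 at -0.58 (-0.83 to -0.33) and Fabp4 at -0.39 (-0.55 to -0.24). Among the 19, Cebpb stood at 2.09 (1.68 to 2.50), Plin3 at 2.70 (1.75 to 3.67), Lpin1 at 1.16 (0.39 to 1.88), Cd36 at 0.64 (0.21 to 1.06) and Lpl at 0.51 (0.16 to 0.85), genes that other tissues also express. The 19 also held genes of the fat synthesis lists, Srebf1 at 1.33 (0.27 to 2.32), Me1 at 1.84 (0.23 to 3.34), Scd2 at 1.54 (0.50 to 2.53) and Gpam at 1.68 (0.53 to 2.77). These had 13, 7, 14 and 12 UMIs in the Loaded members. Of the 21 genes outside the rule that were at least 4-fold higher in the members of both sections, the median was -0.39. The interval lay below 0 for 9 and above 0 for 2, C4b at 1.61 and Mmd at 1.15. These 2 were picked out after their values were seen, and both are also expressed in the other spots, at 331 and 86 UMIs in Loaded, and the part of this background in their ratio was not tested. Pck1 and Retn are not among the 21, having under 50 UMIs in the Loaded spots.

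The patches show how far these ratios varied within a section. Per 1000 UMIs of the 4 genes, Pck1 ranged from 23.4 to 53.8 over the Control patches and the rest of the Control members, and from 0 to 13.5 over the Loaded ones, and the sections did not overlap. Retn gave 49 to 61.1 in the Control groups and 0 to 39.8 in the Loaded groups, again without overlap, on 12, 2 and 9 UMIs in the Loaded groups above 0. Agpat2 gave 18.9 to 45.4 and 0 to 17.7, also without overlap. These genes were named for low ratios between the same members, so that the lack of overlap is a description. They rest on few Loaded UMIs, and several of the counting intervals overlap. The sections overlapped for Scd1 (188 to 294 and 132 to 288), Fasn (112 to 198 and 66.7 to 128), Cidec (19.1 to 41.8 and 25 to 66.7) and Adipoq (90 to 140 and 44.4 to 138).

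**Figure D5:**
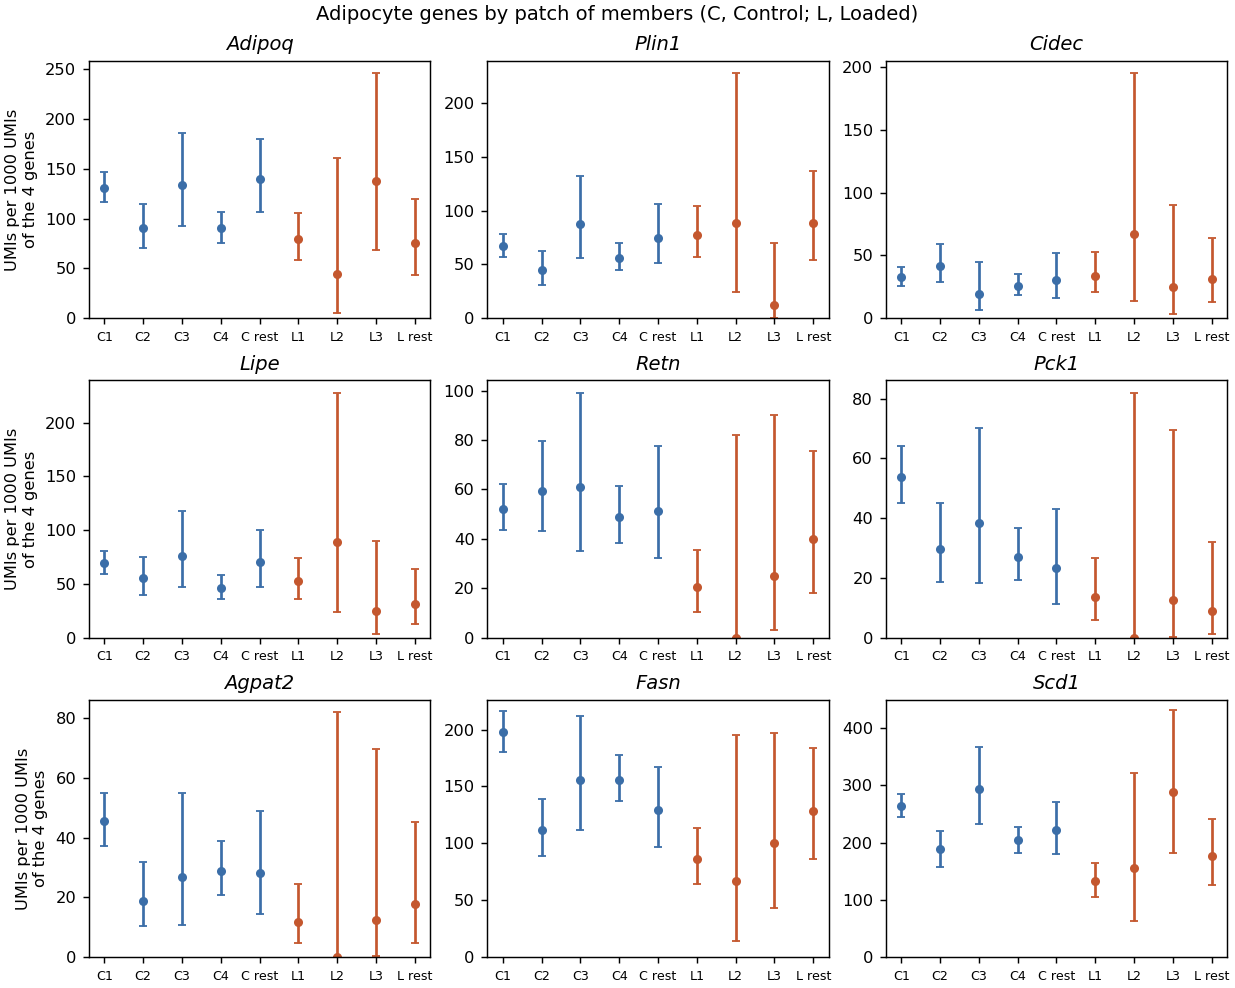
UMIs of 9 adipocyte genes per 1000 UMIs of the 4 genes of the rule, in each patch of at least 5 members (C1 to C4, L1 to L3) and in the remaining members (rest), with exact Poisson 95% intervals of the gene's count. Retn, Pck1 and Agpat2, which were named for low ratios in the same members, are lower in every Loaded group than in every Control group, while Cidec and Scd1 overlap.

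Common limits were tried as well, chosen after the data were seen. With the lowest share of a Control member (0.583%) as the limit in both sections, 60 Control and 14 Loaded spots remained, 12 of the latter in the patch beside the shaft. The 4 genes made up 2.24% and 1.26% of their UMIs, the 12 genes outside the rule 0.59% and 0.243% (0.199 to 0.294), and fatty acid synthesis 1.46% and 0.511% (0.446 to 0.582). Per 1000 UMIs of the 4 genes, Cidec had 31 and 36.2, while Pck1 had 39.6 and 12.7, on 7 UMIs in Loaded, and Retn 52.7 and 19.9, on 11. By this choice, 26 of 895 measured genes were higher and 50 lower, and 12 of the 75 and 28 of the 97 genes named above by the same rule were among them. Fewer spots and fewer UMIs entered, and which of these set the smaller counts was not tested. With the lowest share of a Loaded member (0.235%) as the limit, 172 Control and 60 Loaded spots entered, and 70 of 2345 genes were higher and 99 lower, with 38 of the 75 and 44 of the 97 among them.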

How the data were processed

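UMI counts per gene and spot were deposited by the authors for 2 sections (1 Control, 1 Loaded), made from probe-based Visium libraries with spaceranger 2.0.0 per the file headers, on build mm10 per the labels, whose processing notes also name R 4.3.1 and Seurat. The deposited counts were not normalized and covered 19465 genes, of which 22 share a symbol. The sections hold 9002147 and 4910716 UMIs. Spots of the bone region (131 and 146, as listed by the study) and those under 500 UMIs (64 and 5) were left out, and the members were ranked among the rest.

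Size factors were computed with scran 1.30.0 in R 4.3.3 over the 3052 ranked spots of both sections. A value is the log2 ratio of summed UMIs over summed size factors, with an exact conditional binomial 95% interval. Genes with at least 50 UMIs were counted and ranked, and values of scarcer listed genes are also given. Spots of 1 section are not replicates, so no test was run. A gene was called higher or lower at a 2-fold ratio, and between sections also needed no overlap of 4 blocks of 15 members, in order along the shaft. Python 3.11.15, numpy 2.4.6, scipy 1.17.1, pandas 2.3.3 and edgeR 4.0.16 (TMM factors) were used, and the calculation was tested on simulated data. Gene positions are on GRCm38. Doublets do not apply to spots.

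Named genes were the 12 highest and 8 lowest by the lower-sized ratio of both sections, without the 4 genes of the rule, the 8 highest and 8 lowest called between sections, and genes of the adipocyte and lipid lists. The members, the 27 gene lists and the comparisons were chosen with earlier results of these data known. Alternatives were other scaling, gene minimum, member number, UMI minimum, ranking genes, reference spots and thinning, and blocks left out in turn.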

Additional observations from a re-analysis of the deposited data

Results flagged for a closer look

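The summed tendon list stood at a log2 ratio of 0.27 over the other spots in the Control members and at -0.74 in the Loaded members, and the summed osteoclast list at 0.35 and -0.48. The sums thus had opposite signs in the 2 sections, and the difference was not tested. The median genes stood at -0.29 and -0.95 for tendon and -0.22 and -0.81 for osteoclast, and with library totals at 0.44 and -0.80 and at 0.51 and -0.65. In Control, Comp gave 385 of the 662 tendon UMIs, of which 137 lay in the largest patch and 132 in the smaller patches. Osteoclast genes made up 0.442% of UMIs in the largest Control patch and 0.0975% to 0.152% in the other patches of at least 5 spots.

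Outside the ranked spots, 2 Control spots under 500 UMIs reached the lowest share of a Control member, at 0.615% (3 of 488 UMIs) and 1.35% (1 of 74 UMIs). In Loaded, 1 bone region spot reached the lowest share of a Loaded member, at 0.331% (2 of 604 UMIs). Each rests on 1 to 3 UMIs of the 4 genes.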

How the results depend on the processing

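No paired analysis was possible because each group is 1 section. The cause of the shifts below was not tested. In Control, the 749 higher and 2394 lower genes became 2648 and 925 with library totals and 1551 and 1259 with equal weight per spot. They became 3352 and 2485 with at least 10 UMIs per gene, and 126 and 127 against neighbouring spots only. In Loaded, the 393 higher and 1217 lower became 602 and 922 with totals, 691 and 1341 with equal weight, and 2901 and 1231 with at least 10 UMIs. They became 1251 and 1032 with 30 members, 264 and 760 with 100 members, and 32 and 48 against neighbours. Between sections, the 75 higher and 97 lower became 44 and 125 with totals, 34 and 118 with equal weight, and 251 and 245 with at least 10 UMIs. With only the 13 Loaded and 32 Control members under 10% fast muscle they became 21 and 31, of 446 measured genes in place of 1418. Of these, 5 and 17 were among the 75 and 97. With 30 members the counts were 55 and 74, with 19 and 60 among the 75 and 97. With 100 members they were 88 and 97, with 39 and 66 among them. Ranked by the 12 genes outside the rule, they were 86 and 82, with 39 and 59 among them. Leaving out a block gave 753 to 872 higher and 2319 to 2482 lower genes in Control, 443 to 619 and 1106 to 1257 in Loaded (619 without block 4), and 65 to 130 and 72 to 129 between sections (130 without Control block 4, which is mostly the patch beside the shaft). Of the alternatives chosen after seeing the data, requiring an interval without 0 left 1534 lower genes in Control and 231 higher and 231 lower in Loaded, the lowest Control share as a common limit gave 26 and 50 of 895 between sections, the lowest Loaded share gave 70 and 99 of 2345, of which 38 and 44 were among the 75 and 97, and members with a UMI of Adipoq or Plin1 gave 48 higher. Against neighbours, Elane and Ibtk in Control turned to 0.37 each, and Samd8 in Loaded to 0.16 with 30 members. The share of spots with a UMI of the 12 genes, thinned to 500 UMIs or not thinned, was 80% or 100% in the Control members, 18.7% or 60.3% in the other spots and 19.8% or 71.6% in the muscle spots, and 30% or 68.3%, 11.9% or 49.2% and 10.9% or 60.4% in Loaded. Of the values of named genes under these alternatives, 767 stayed within the counting interval of the value reported, 106 lay outside it in the same direction or below 2-fold, and 3 reversed. Loaded members had a median of 8.5 UMIs of the 4 genes, against 52 in Control, which limits what single Loaded spots can show.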
